A study of Mus musculus with 10 samples.

Results

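The 10 genes described here are the circadian clock genes Arntl, Npas2, Per1, Per2, Per3, Cry1, Dbp, Tef, Nr1d1 and Nr1d2, chosen by name from the 24062 genes in the count tables. They were measured by RNA sequencing of the jejunum at postnatal day 5 in C57BL/6 mice, with 5 libraries from wild-type (WT) mice and 5 from KSR23 mice. KSR23 mice were bred from the R23 line, which holds an IL-23 cassette in ROSA26 that cre switches on, and K14-cre mice, whose cre recombinase is driven by the keratin 14 promoter. The cytokine is therefore made mainly in keratinocytes, and the KSR23 pups were small and died before weaning. The controls were wild-type mice of the same strain and age. The time of day at which tissue was taken is not given in the sources used here, and its part in any clock gene value was not tested. The study calls the libraries of a group biological replicates, without saying whether tissue was pooled across animals.

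The circadian clock is a loop of transcription factors found in nearly every cell. A dimer of CLOCK (or NPAS2) with ARNTL, also called BMAL1, switches on the Per and Cry genes, whose products return to the nucleus and inhibit that dimer. A second loop of the nuclear receptors REV-ERB alpha and beta (Nr1d1, Nr1d2) represses Arntl, and the PAR bZIP factors DBP and TEF carry the rhythm to output genes. In the intestine the clock is known for timing nutrient absorption, cell division and barrier genes, and feeding and glucocorticoids reset it.

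Of the 10 genes, Dbp alone passed the test between the groups. It fell 2.40-fold in KSR23, from 1.30 ± 0.364 to 0.531 ± 0.308 CPM (counts per 1 M counts of the library, SD, n = 5 each, log2 fold change -1.26, SE 0.45, adjusted p = 0.032 by edgeR's likelihood ratio test). The call was lost in 11 of 19 alternative fits, among them edgeR's quasi-likelihood test (adjusted p = 0.0597). Tef, its relative, had the next largest log2 fold change of the members (-0.93, SE 0.44) and missed the threshold (adjusted p = 0.136). That is 1 call among 10 genes, against 18.5% of the 17632 genes tested in either direction (9.73% higher and 8.76% lower in KSR23), so the members were not called more often than genes at large. The log2 fold changes were positive for 6 members and negative for 4, with a median of 0.19 against 0.03 over all genes tested. CPM of the groups did not separate without overlap in any of the 10 members, whereas 14.4% of all genes tested had no overlap (7.41% higher and 6.99% lower in KSR23).

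The libraries held 25.5 to 32.0 M counts in WT and 31.2 to 60.9 M in KSR23, and the members held 9 to 1794 counts each. Replicates 4 and 5 of both groups lay between the others, and were the highest or lowest of their group at 8.54% to 18.4% of 9737 well expressed genes, where like libraries would average 40%. Whether they are independent of the other libraries was not settled, so that an n of 5 may overstate the independent samples per group and p-values over 10 libraries may be too small. A fit of replicates 1 to 3 alone is therefore given beside the results. Among the genes it tested the likelihood ratio test called 3.36%, and edgeR's quasi-likelihood test called 0.812%. It called 0 of the 10 members by either, with 0 members at an unadjusted p under 0.05. KSR23 replicate 1, the deepest library (60.9 M counts), had the highest value of its group in 7 of the 10 members and the lowest in 2. Over the 9737 well expressed genes it was the highest or lowest of its group at 57.1%, and KSR23 replicate 3 at 75.6%.

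Some cell type markers also differed between the groups, where 18.5% of all genes tested were called and 14.4% had no overlap. The sums below overlapped for all but the epithelial and acinar markers. All 8 epithelial markers were detected, and their sum was 2490 to 4240 CPM in WT and 4500 to 7960 CPM in KSR23 without overlap, and 2 of the 8 genes (Krt20 and Cdh1) were called higher. Without Krt20 the sums overlapped, at 2100 to 3910 CPM in WT and 2980 to 5810 CPM in KSR23, and Epcam had a log2 fold change of -0.44. Summed pancreatic acinar markers were 100 to 211 CPM in WT and 6.19 to 15.9 CPM in KSR23. All 4 genes tested of 7 were called lower, and Pnlip and Amy2a5 were at or under 3 counts in each library. Ctrb1 and Cela1 made up most of the WT sum, with means of 82.2 and 70.6 CPM, against 0.803 CPM for Cpa1. The paper describes digestive enzymes as also produced by the jejunum, so this sum need not track acinar cells. Smooth muscle markers summed to 1690 to 3700 CPM in WT and 1780 to 2360 CPM in KSR23, with 1 of 8 called lower (Acta2). The endothelial sum was 101 to 140 CPM in WT and 91.0 to 149 CPM in KSR23, with 2 of 5 called lower (Cdh5 and Emcn, both without overlap). Fibroblast markers summed to 1250 to 1890 CPM in WT and 1230 to 1760 CPM in KSR23, with 1 of 6 called lower (Dcn, without overlap). Of the enteric neuron and glia markers, at 26.3 to 38.7 CPM in WT and 23.5 to 39.3 CPM in KSR23, 1 of 6 was called higher (Ret), and of the leukocyte markers 0 of 5 were called by edgeR's likelihood ratio test (0 at an unadjusted p under 0.05) or its quasi-likelihood test. With the quasi-likelihood test the calls of Cdh1 (adjusted p = 0.0572), Acta2 (adjusted p = 0.0538) and the acinar Cpa1 (adjusted p = 0.0595) were lost, and the other marker calls held. In replicates 1 to 3 the likelihood ratio test kept only Krt20, Cela1, Ctrb1 and Cpb1, and the quasi-likelihood test only Ctrb1. The former test thus also lost Dcn (adjusted p = 0.408), Cdh5 (0.364), Emcn (0.386) and Ret (0.480). In bulk tissue fewer cells of a type and less RNA per cell cannot be told apart, and the part of these differences in the clock gene values was not tested.

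**Figure D1:**
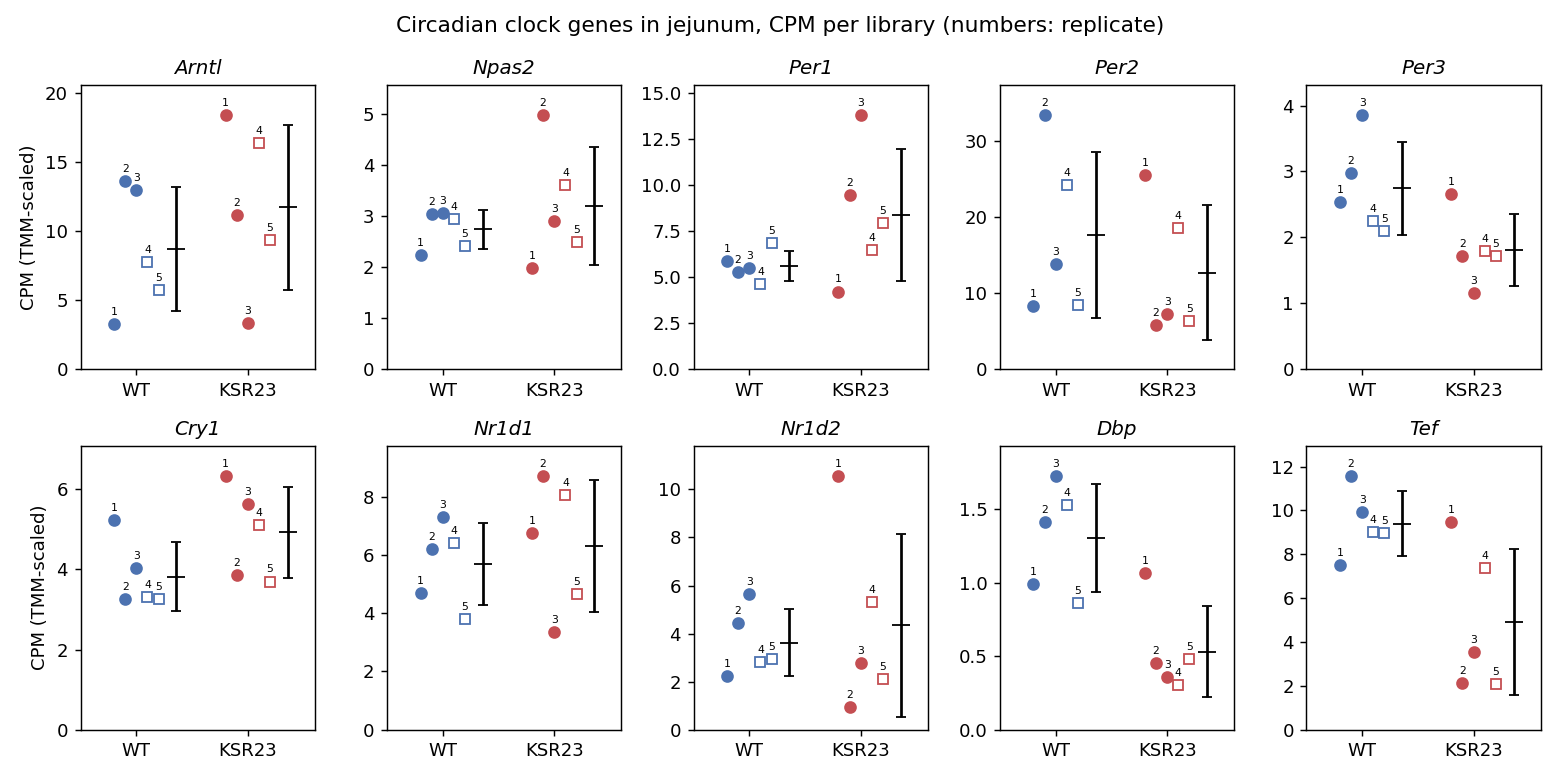
CPM of each clock gene per library, with WT in blue, KSR23 in red, circles for replicates 1 to 3, squares for replicates 4 and 5, and bars for the mean ± SD. The 2 groups overlap in all 10 genes, and 4 of 5 KSR23 libraries lie below each WT library for Dbp.

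To see the sequences on which the loop acts, the 250 bases before each start site were taken from RefSeq (GRCm38.p6) for 9 of the 10 members, and Ciart, a repressor of the loop whose values follow, was added. The stretches below show the parts outside annotated exons, on the strand of each gene, with capitals for the E-box (CACGTG), which the CLOCK and ARNTL dimer binds, its variant CACGTT, which is printed as its reverse complement where it lies on the other strand, and the D-box (TTANGNAA), which DBP and TEF bind. They lie at chr7:45704997-45705087 (Dbp), chr11:69098699-69098947 (Per1), chr10:85185065-85185304 (Cry1), chr4:151044666-151044915 (Per3), chr11:98775378-98775627 (Nr1d1) and chr3:95882252-95882478 (Ciart).
Dbp: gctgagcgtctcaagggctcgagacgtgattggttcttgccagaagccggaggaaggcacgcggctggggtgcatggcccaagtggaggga
Per1: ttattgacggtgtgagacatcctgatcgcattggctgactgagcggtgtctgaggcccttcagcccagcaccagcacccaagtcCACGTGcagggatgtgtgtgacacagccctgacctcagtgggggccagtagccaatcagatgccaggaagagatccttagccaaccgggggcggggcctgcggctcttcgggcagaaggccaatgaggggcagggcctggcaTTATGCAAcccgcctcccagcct
Cry1: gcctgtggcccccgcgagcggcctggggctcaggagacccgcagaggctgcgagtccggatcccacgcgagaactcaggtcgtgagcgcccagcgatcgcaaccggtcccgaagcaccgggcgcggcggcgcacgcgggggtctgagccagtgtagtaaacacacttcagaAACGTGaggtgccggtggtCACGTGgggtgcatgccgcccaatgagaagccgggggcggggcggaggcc
Per3: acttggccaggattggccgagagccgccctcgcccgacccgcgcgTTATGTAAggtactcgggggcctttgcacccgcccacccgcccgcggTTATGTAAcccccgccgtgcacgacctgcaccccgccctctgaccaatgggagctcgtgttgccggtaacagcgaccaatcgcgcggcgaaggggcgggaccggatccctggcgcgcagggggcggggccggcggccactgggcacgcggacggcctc
Nr1d1: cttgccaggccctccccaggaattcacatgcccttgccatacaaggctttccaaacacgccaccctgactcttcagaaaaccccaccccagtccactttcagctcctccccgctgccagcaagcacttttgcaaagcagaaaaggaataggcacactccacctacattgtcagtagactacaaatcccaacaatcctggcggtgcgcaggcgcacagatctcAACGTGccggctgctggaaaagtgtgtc
Ciart: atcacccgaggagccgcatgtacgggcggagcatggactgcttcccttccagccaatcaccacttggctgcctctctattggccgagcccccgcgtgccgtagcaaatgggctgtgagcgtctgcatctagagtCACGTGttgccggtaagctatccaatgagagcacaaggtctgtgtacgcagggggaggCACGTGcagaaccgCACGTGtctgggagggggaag
Both strands were searched, and the E-box reads the same on both. An E-box stood in 3 of the 9 members (Per1, Cry1, Tef), against 6.86% of 27025 genes with the same window. CACGTT stood in 2 (Cry1, Nr1d1) against 4.50%, and a D-box in 2 (Per1, Per3) against 11.8%. No member held the core of the ROR element, TAGGTCA, to which REV-ERB receptors bind, against 2.55% of genes. Ciart held 3 E-boxes, 116, 58 and 44 bases before its start. The Dbp window held no match to these letters, and the match counts say nothing of binding in these samples.

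Arntl and Npas2 are the activators. Arntl (chr7:113207465-113314126, mm10) measured 3.28, 13.6, 13.0, 7.78 and 5.74 CPM in WT replicates 1 to 5 and 18.4, 11.2, 3.30, 16.4 and 9.37 CPM in KSR23. Within each group the lowest and highest libraries lay apart by 4.16-fold in WT and 5.57-fold in KSR23, more than the 1.35-fold between the groups. The log2 fold change was 0.44 (SE 0.49, 95% interval -0.53 to 1.40, adjusted p = 0.603). Immediate early genes, a set switched on within minutes by many stimuli, also varied within the groups. Their summed level ran from 22.5 to 257 CPM in WT and 85.6 to 387 CPM in KSR23, with WT replicate 1 and KSR23 replicate 3 lowest for both, and the part of this in Arntl was not tested. Over the 9737 well expressed genes, those libraries were the highest or lowest of their group at 67.1% and 75.6%. Npas2 had 2.23, 3.04, 3.05, 2.94 and 2.40 CPM in WT and 1.98, 4.97, 2.90, 3.60 and 2.48 CPM in KSR23. Its log2 fold change was 0.22 (95% interval -0.43 to 0.87, adjusted p = 0.718).

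Per1, Per2, Per3 and Cry1 encode the inhibitors. Per1 measured 5.85, 5.27, 5.47, 4.64 and 6.83 CPM in WT and 4.21, 9.48, 13.8, 6.45 and 7.96 CPM in KSR23. The difference on the log2 scale was 0.57 (SE 0.35, 95% interval -0.11 to 1.26, adjusted p = 0.265). KSR23 replicate 1 was the lowest of all 10 libraries, and the spread was 1.47-fold in WT and 3.28-fold in KSR23. Per2 (chr1:91415982-91459324) measured 8.23, 33.4, 13.9, 24.2 and 8.41 CPM in WT and 25.5, 5.74, 7.23, 18.6 and 6.32 CPM in KSR23. Thus 3 of 5 KSR23 libraries lay below each WT library, and the other 2 lay inside the WT range. The log2 fold change of Per2 was -0.47 (95% interval -1.51 to 0.57, adjusted p = 0.602). Per3 measured 2.54, 2.97, 3.85, 2.25 and 2.103 CPM in WT and 2.66, 1.71, 1.15, 1.79 and 1.72 CPM in KSR23, so that replicate 1 was the only KSR23 library inside the WT range. Its log2 fold change was -0.59 (95% interval -1.25 to 0.07, adjusted p = 0.229). Cry1 had 5.23, 3.25, 4.04, 3.31 and 3.27 CPM in WT and 6.33, 3.87, 5.64, 5.12 and 3.70 CPM in KSR23 (log2 fold change 0.37, 95% interval -0.23 to 0.97, adjusted p = 0.446).

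Nr1d1 and Nr1d2 encode the REV-ERB repressors. Nr1d1 measured 4.71, 6.19, 7.30, 6.39 and 3.79 CPM in WT and 6.76, 8.71, 3.34, 8.06 and 4.66 CPM in KSR23, and its log2 fold change was 0.15 (95% interval -0.53 to 0.84, adjusted p = 0.819). Of its exon bases 8.55% lie over Thra on the opposite strand, and the counting's strand setting is not stated. Thra measured 12.4 CPM in WT and 7.95 CPM in KSR23 (log2 fold change -0.65, adjusted p = 0.0877 by the likelihood ratio test). Nr1d2 had 2.23, 4.46, 5.65, 2.82 and 2.93 CPM in WT and 10.6, 0.935, 2.78, 5.30 and 2.12 CPM in KSR23. This was the widest spread of the 10 genes, 11.3-fold among KSR23 libraries against 2.54-fold in WT. Its log2 fold change of 0.27 (95% interval -0.82 to 1.36, adjusted p = 0.80) turned to -0.31 without KSR23 replicate 1 (adjusted p = 0.717).

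Dbp and Tef are the PAR bZIP outputs. Dbp (chr7:45705088-45710203) measured 0.991, 1.41, 1.72, 1.53 and 0.864 CPM in WT (32, 40, 47, 53 and 23 counts) and 1.07, 0.451, 0.358, 0.301 and 0.480 CPM in KSR23 (75, 14, 9, 17 and 17 counts). KSR23 replicate 1 lay inside the WT range, and the other 4 lay below it. The call was lost by the quasi-likelihood test (adjusted p = 0.0597; 0 of 10 members called, 2 at an unadjusted p under 0.05, 15.4% of all genes called) and in replicates 1 to 3 (log2 fold change -1.07, adjusted p = 0.56). DESeq2 made the call (adjusted p = 0.0264). Of 10 fits that left out 1 library, 3 made it and 7 did not, those without WT replicate 2, 3 or 4 or KSR23 replicate 2, 3, 4 or 5 (adjusted p 0.00095 to 0.113 over the 10). Of the Dbp exon bases 18% lie over Sphk2 on the opposite strand, which measured 93.5 CPM in WT and 78.2 CPM in KSR23 (log2 fold change -0.26, adjusted p = 0.566). With the strand setting not stated, the part of this overlap in the Dbp counts was not tested. Tef (chr15:81802421-81826863) had 7.49, 11.6, 9.94, 9.01 and 8.97 CPM in WT and 9.46, 2.13, 3.54, 7.35 and 2.09 CPM in KSR23. In Tef too, 4 of 5 KSR23 libraries lay below each WT library and replicate 1 lay inside the WT range. Without KSR23 replicate 1 Tef passed the test (log2 fold change -1.25, adjusted p = 0.0247), against a 95% interval of -1.80 to -0.06 and no call in all 10 libraries.

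**Figure D2:**
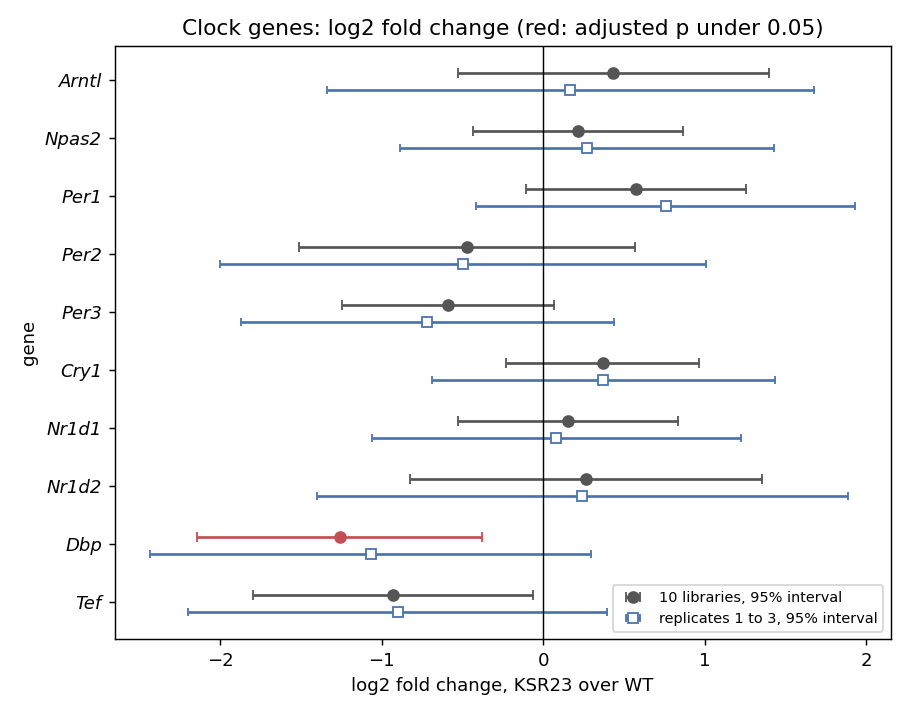
Log2 fold change, KSR23 over WT, of each clock gene with its 95% interval in all 10 libraries (circles) and in replicates 1 to 3 (squares). Red marks the gene at an adjusted p under 0.05, Dbp at -1.26.

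**Figure D3:**
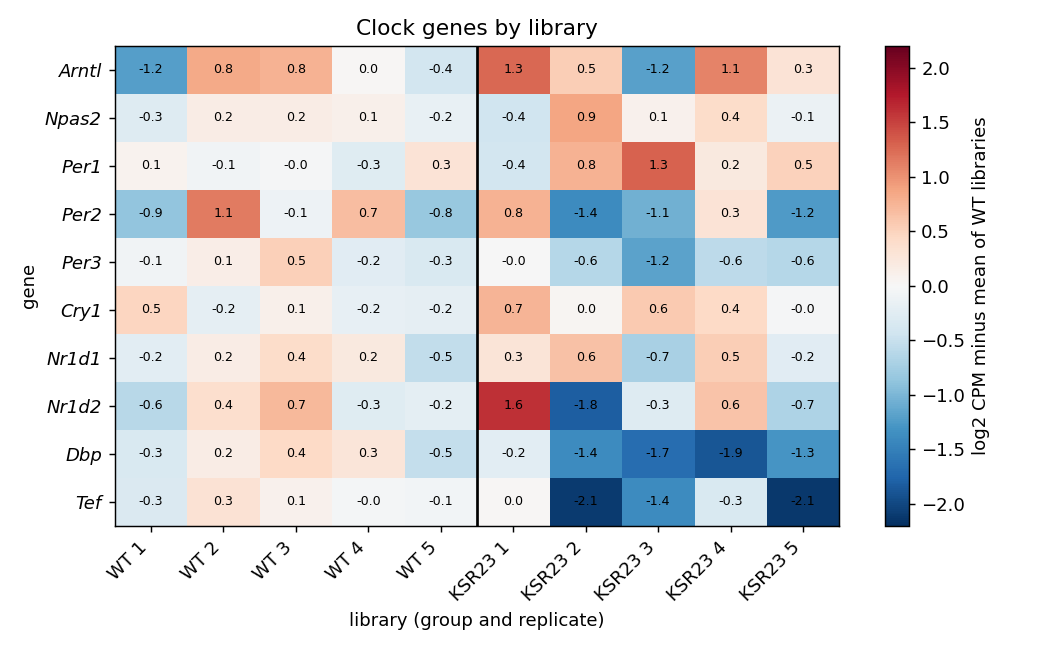
Log2 CPM of each clock gene in each library minus the mean of the WT libraries, with the value printed in each cell. KSR23 replicate 1 lies near the WT mean for Dbp, Per3 and Tef, where most of the other KSR23 libraries are lower.

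Per base of exon, which allows levels to be compared between genes, the WT means were 3.01 for Per2, 1.84 for Nr1d1, 1.19 for Tef, 1.15 for Arntl, 1.14 for Cry1 and 0.997 for Per1 (CPM per kb). Lower levels were found for Nr1d2 (0.669), Npas2 (0.570), Dbp (0.436) and Per3 (0.285). WT ranges of neighbours in this order overlapped for each pair. In KSR23 the mean levels were 2.17 for Per2 and 2.05 for Nr1d1, and Dbp (0.178 CPM per kb) and Per3 (0.188) were the lowest.

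The other genes of the loops were then examined, a list of 19 genes of which 6 were called, 4 higher and 2 lower in KSR23, against 18.5% of all genes tested (9.73% higher and 8.76% lower). Their median log2 fold change was -0.18, and 5 had groups without overlap (14.4% of all genes tested), Csnk1e (log2 fold change -0.34, adjusted p = 0.415) and 4 of the called genes. Clock, the partner of Arntl, measured 14.2 to 16.4 CPM in WT and 23.8 to 33.8 CPM in KSR23 (log2 fold change 0.83, SE 0.26, adjusted p = 0.0119). The groups did not overlap, and the call was lost without WT replicate 5 (adjusted p = 0.0569) or KSR23 replicate 5 (adjusted p = 0.0528). It was also lost with the replicate number as a block (adjusted p = 0.107) and in replicates 1 to 3 (adjusted p = 0.527 by the likelihood ratio test). Ciart, a repressor of the ARNTL dimer, measured 1.24, 0.707, 0.881, 0.806 and 1.80 CPM in WT and 1.64, 3.45, 4.57, 2.67 and 3.64 CPM in KSR23. On the log2 scale it rose by 1.55 (SE 0.40, adjusted p = 0.00163 by the likelihood ratio test), and was called in each of the 10 fits that left out 1 library. Over all 10 libraries the groups of Ciart overlapped, with KSR23 replicate 1 (1.64 CPM) below WT replicate 5 (1.80 CPM). In replicates 1 to 3 they did not overlap, at a log2 fold change of 1.80 (adjusted p = 0.12).

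Csnk1d, a kinase that marks PER proteins for degradation, rose from 112 ± 9.00 to 200 ± 19.2 CPM (adjusted p = 0.00257). Arntl2, a paralogue of Arntl, rose from 0.368 ± 0.225 to 1.27 ± 0.730 CPM on few counts (adjusted p = 0.0167, and 0.0506 by the quasi-likelihood test), a call lost without WT replicate 1 or 5 or KSR23 replicate 4. Fbxl21, of an F-box family that turns over CRY proteins, fell from 9.08 ± 1.04 to 1.67 ± 1.29 CPM (log2 fold change -2.43, SE 0.57, adjusted p = 0.00084). Id2, an inhibitor of bHLH factors, fell from 434 ± 101 to 107 ± 19.9 CPM (adjusted p = 1.98e-11) and was the 1 gene of the list called in replicates 1 to 3 (adjusted p = 0.0105). The remaining 13 tested genes, among them Cry2 (log2 fold change 0.23), Rora (-0.27), Hlf (-1.40), Nfil3 (0.20) and Bhlhe40 (-0.41), did not pass.

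Of 9 genes known as rhythmic outputs in many tissues, 4 were called, 2 in each direction, against 18.5% of all genes tested, and the median log2 fold change was -0.16. Nampt, the NAD salvage enzyme, rose from 23.4 ± 2.93 to 64.5 ± 13.8 CPM without overlap (adjusted p = 2.72e-06). Fkbp5, also a glucocorticoid target, rose from 1.31 ± 0.423 to 6.90 ± 4.45 CPM (adjusted p = 0.000159), though KSR23 replicate 1 had 1.37 CPM, inside the WT range. Wee1, a cell cycle kinase, fell from 8.37 ± 2.74 to 3.84 ± 1.39 CPM (adjusted p = 0.0176), and missed the threshold without any 1 of WT replicates 2, 3 and 4 or KSR23 replicates 2, 4 and 5 (adjusted p up to 0.0747). Tsc22d3, also a glucocorticoid target, fell from 98.9 ± 9.22 to 58.9 ± 16.5 CPM without overlap (adjusted p = 0.0374), but of the 10 fits that left out 1 library only those without KSR23 replicate 3 or 5 called it (adjusted p up to 0.144 over the 10). Usp2, a deubiquitinase, missed the threshold (adjusted p = 0.572, log2 fold change 0.44). In replicates 1 to 3 Fkbp5 was the 1 gene of these called (adjusted p = 0.0403).

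**Figure D4:**
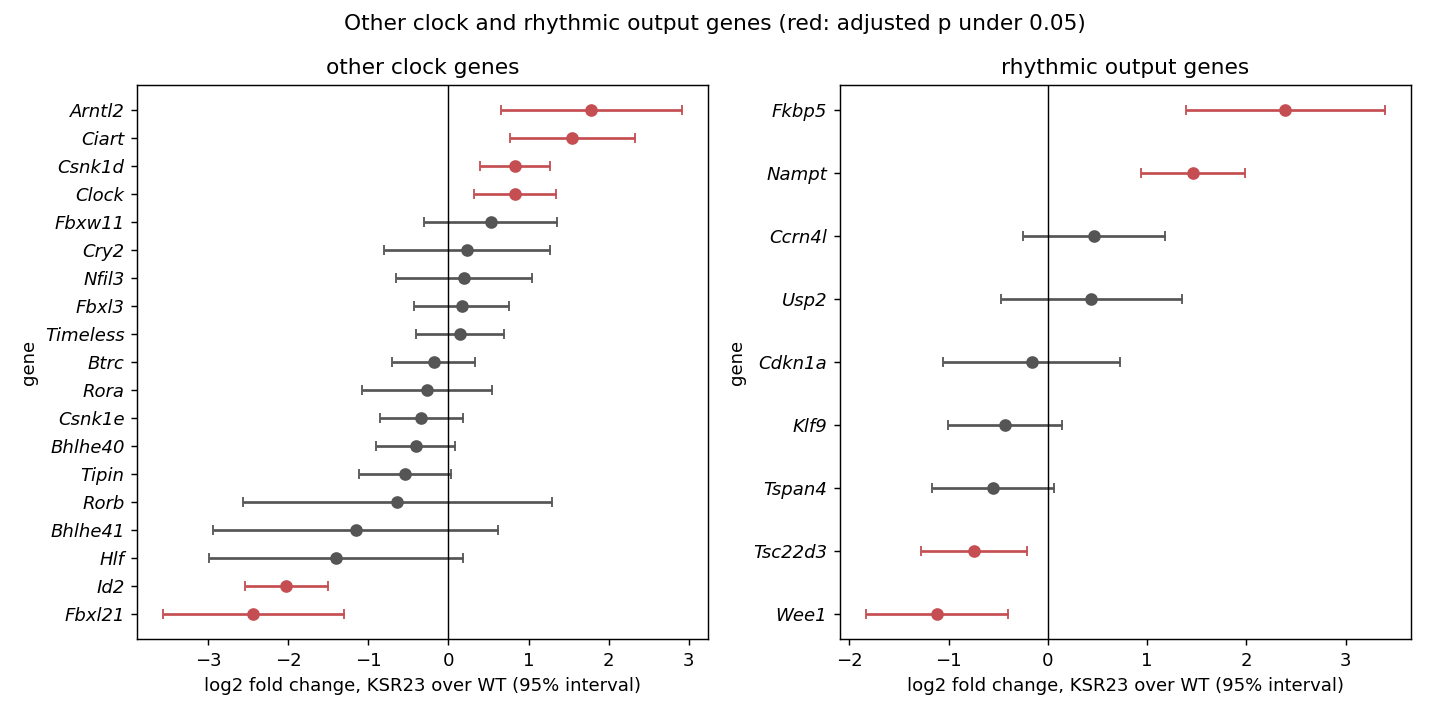
Log2 fold change, KSR23 over WT, with 95% interval, for the other clock genes and the rhythmic output genes, red where the adjusted p was under 0.05. Ciart, Clock, Csnk1d, Arntl2, Nampt and Fkbp5 are the red genes right of 0.

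The genes most like Nr1d1 over the 10 libraries, by the root mean square difference of log2 CPM centred on the WT mean among 12880 genes, were Kcnj8 (0.167), Fancc (0.173), Ccdc91 (0.184), Dxo (0.191) and Smarca4 (0.195), against a median of 0.789. Those most like Arntl were Gtf2h1 (0.165), March7 (0.182), Tapbp (0.193), Tcirg1 (0.242) and Derl1 (0.244), against a median of 1.10.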

How the data were processed

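The deposited values were counts of reads per gene. Per the labels and the study's methods, the authors primed 100 pg of total RNA with oligo-dT (SMART-Seq v4), made Nextera XT libraries, read them from a single end over 75 bases, mapped them to mm10 with TopHat 2.1.0 and counted with htseq-count 0.6.1p1. No molecular identifiers were used, so PCR copies cannot be recognised and depth covers counting error only. Reads with more than 1 alignment (8.62 to 17.1 M per library) entered no gene.

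Counts of all 10 libraries were compared in edgeR 4.0.16 (R 4.3.3) with TMM factors, the group as the only term and the likelihood ratio test, the last as in the study. A gene was kept if any library held at least 5 of its counts (17632 of 24062), which is one reading of the study's filter, and 5 or more in every library (13181 genes), its other reading, was an alternative. Benjamini-Hochberg adjustment ran over all genes tested, with calls made at an adjusted p under 0.05. Intervals are 95% normal intervals from the model's SE. CPM use TMM-scaled totals, with a floor of 3 counts at 0.0492 to 0.118 CPM. Log2 CPM used a prior count of 2. The members and lists were chosen with earlier results of these data known, and 1 gene of the lists is not reported here. The named genes are the members, the 2 further lists, and the 5 genes most like Nr1d1 and the 5 most like Arntl. Fos, the cell type markers and the overlapping genes Sphk2 and Thra fall outside that rule and were named after their values were seen. Alternatives tried included DESeq2 1.42.0, edgeR's quasi-likelihood test, other scalings and filters, replicates 1 to 3 alone, a replicate block and leaving out each library. Positions are from mm10 (GENCODE M21), and promoters from RefSeq (GRCm38.p6).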

Additional observations from a re-analysis of the deposited data

Results flagged for a closer look

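In 76 groups of 5 libraries examined over the 10 clock genes, the other clock genes and the output genes, 3 had a lowest or highest library set apart from the others, where chance gives about 3.8. None of them was among the 10 clock genes. All 3 were in WT, and 2 of them were replicate 3. For Clock, WT replicate 5 was low at a log2 CPM of 3.84 (379 counts, 14.2 CPM), with the next library at 4.01. For Bhlhe40, which encodes a repressor of the loop, WT replicate 3 was low at 7.60 (193 CPM), with the next at 8.08. For Nfil3, which encodes a repressor that competes at the D-box, WT replicate 3 was high at 2.86 (7.23 CPM), with the next at 1.65.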

How the results depend on the processing

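Over 19 alternatives the 10 clock genes gave 190 log2 fold changes, of which 176 kept their direction and their side of the threshold, 11 lost the call, 1 gained it and 2 changed sign. The count of clock genes called was 0 by the quasi-likelihood test (2 at an unadjusted p under 0.05), 0 in replicates 1 to 3 by either test, 0 with the replicate block, and 0 to 2 when 1 library was left out. Replicates 1 to 3 gave 579 calls over all genes by the likelihood ratio test (140 with quasi-likelihood), against 3261 in all 10 libraries and 2370 to 3802 without 1 library. They gave 1 and 0 calls among the other clock genes (4 unadjusted in both), 1 and 0 among the output genes (2 unadjusted in both), and 0 among the immediate early genes by the quasi-likelihood test (1 unadjusted). Without 1 library the calls were 4 to 6 of the other clock genes, 2 to 4 of the output genes and 1 to 2 of the immediate early genes. Same-numbered libraries deviated from their group means with correlations of -0.548 to 0.248. The labels do not say whether the numbers pair the samples. These correlations cannot settle it, since libraries of unlike number reached 0.648 in the same measure. With the replicate block 2202 genes were called, the output genes had 2 calls, and Dbp had a log2 fold change of -1.38 (adjusted p = 0.0778). The block also ended the calls of Clock (0.82, adjusted p = 0.107), Wee1 (-1.15, adjusted p = 0.0778) and Tsc22d3 (-0.79, adjusted p = 0.129). The balance of directions over all genes turned with the scaling. TMM factors gave 1716 genes called higher and 1545 lower, and library totals alone gave 1414 higher and 1858 lower. The median log2 fold change was 0.027 and -0.033 in turn.

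The sign of Nr1d2 changed with the block (-0.13) and without KSR23 replicate 1 (-0.31 to 0.57 over the libraries left out). Cry2 changed with the block (-0.020) and ran from -0.046 to 0.51 without 1 library. Nfil3 changed in replicates 1 to 3 (-0.030 by both tests) and ran from -0.017 to 0.63 without 1 library. The alternatives for single genes outside the 10 were added after seeing the data. The replicates 1 to 3 fit has fewer samples, and otherwise the cause was not tested. Dbp rests on 9 to 75 counts per library, the fewest of the 10 genes, and the part of depth in its SE (0.45) was not tested.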

Other observations

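Ciart and Dbp, both targets of the ARNTL dimer, differed in opposite directions, a pair chosen after their values were seen. The log2 ratio of Ciart to Dbp was 0.31, -0.95, -0.93, -0.88 and 1.02 in the WT libraries, against 0.59, 2.79, 3.49, 2.94 and 2.79 in those of KSR23, so that 4 of 5 KSR23 libraries lay above each WT library and replicate 1 lay inside the WT range. No test was made of this ratio.

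Fos, an immediate early gene, rose from 16.2 ± 5.94 to 127 ± 84.4 CPM (SD, n = 5 each, log2 fold change 2.97, SE 0.45, adjusted p = 3.91e-08 by edgeR's likelihood ratio test), and was called in each fit that left out 1 library. In replicates 1 to 3 the likelihood ratio test called it (adjusted p = 0.0132) and edgeR's quasi-likelihood test did not (adjusted p = 0.163). It was the 1 called gene of the 10 in its list, against 18.5% of all genes tested.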
